A study of Mus musculus with 12 samples.

Results

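Cholesterol and fatty acid synthesis genes, the genes that sense sterols, and the enzyme Ch25h were followed in mouse peritoneal exudate cells after an injection of interferon beta (IFN-β). The set was a list of 36 genes, taken by name, and was drawn up with earlier results of these data known. All 36 were found by symbol among the 27962 gene names on the array, on 65 probes, and all 36 were among the 18438 genes tested. By role, the list held 18 enzymes of cholesterol synthesis, 5 genes of the sterol sensing system, 1 sterol carrier (Stard4), 7 genes of fatty acid synthesis and desaturation, the liver X receptors Nr1h3 and Nr1h2, their targets Abca1 and Abcg1, and Ch25h. The cells were the mixed leukocytes and shed lining cells washed from the abdominal cavity of female mice aged 8 weeks, of the strain 129S2/SvPas*BALB/c. The mice were wild type or Ifnar2-/-, lacking a subunit of the type I interferon receptor, and the cells were taken 3 h after an intraperitoneal injection of phosphate-buffered saline (PBS) or of IFN-β at 10000 IU/ml, with no volume stated. This gave 4 groups of 3 arrays: wild type with PBS, wild type with IFN-β, Ifnar2-/- with PBS and Ifnar2-/- with IFN-β. A different mouse was used for each array, in independent experiments, per the series' design text. The sources used here do not name the deleted stretch of the gene.

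Cells make cholesterol from acetyl-CoA along the mevalonate pathway, and most enzymes of that pathway are transcribed under the control of the sterol regulatory element-binding proteins (SREBPs), encoded by Srebf1 and Srebf2. When membrane sterol is low, Scap carries SREBP from the endoplasmic reticulum to the Golgi for cleavage; when sterol is plentiful, Insig1 and Insig2 hold Scap back. Oxysterols, which are hydroxylated cholesterols, bind Insig proteins and so block SREBP, and they also activate the liver X receptors (LXRs), which raise sterol export through Abca1 and Abcg1 and transcription of Srebf1. Ch25h makes such an oxysterol and is known in macrophages as a gene induced by interferons. SREBP-1 also drives the fatty acid synthesis enzymes Acaca and Fasn, the elongase Elovl6 and the desaturases Scd1, Scd2, Fads1 and Fads2.

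SREBPs commonly act on promoters together with NF-Y, which binds the CCAAT box, and the promoters of several members are shown for that reason. They are the 250 bases before the annotated start, from RefSeq on GRCm38.p6, written 5′ to 3′ along the gene. Capitals mark the SREBP site TCACNCCAC and the NF-Y box CCAAT, each searched on both strands, so that CCAAT on the other strand reads ATTGG. Hmgcs1, the enzyme that joins acetoacetyl-CoA to acetyl-CoA, lies on the + strand at chr13:119690101-119690350. Mvk, mevalonate kinase, lies on the + strand at chr5:114444019-114444268. Lss, which closes the sterol rings to form lanosterol, lies on the + strand at chr10:76531355-76531604. Dhcr7, the reductase of a last step to cholesterol, is shown at chr7:143829964-143830213 on the + strand, the only 1 of its 3 annotated starts with an NF-Y box. Sc5d, a sterol desaturase just before Dhcr7, lies on the - strand at chr9:42264301-42264550, and Ch25h on the - strand at chr19:34475149-34475398.
Hmgcs1: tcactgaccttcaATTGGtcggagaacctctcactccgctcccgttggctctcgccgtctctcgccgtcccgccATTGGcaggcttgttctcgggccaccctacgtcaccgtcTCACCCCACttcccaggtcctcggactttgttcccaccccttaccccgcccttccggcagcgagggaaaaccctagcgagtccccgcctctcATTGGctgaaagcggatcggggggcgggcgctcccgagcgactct
Mvk: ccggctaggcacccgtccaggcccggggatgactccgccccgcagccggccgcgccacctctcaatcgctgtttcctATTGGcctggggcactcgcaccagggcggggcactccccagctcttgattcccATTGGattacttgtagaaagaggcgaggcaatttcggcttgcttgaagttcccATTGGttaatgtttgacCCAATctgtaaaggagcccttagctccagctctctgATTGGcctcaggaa
Lss: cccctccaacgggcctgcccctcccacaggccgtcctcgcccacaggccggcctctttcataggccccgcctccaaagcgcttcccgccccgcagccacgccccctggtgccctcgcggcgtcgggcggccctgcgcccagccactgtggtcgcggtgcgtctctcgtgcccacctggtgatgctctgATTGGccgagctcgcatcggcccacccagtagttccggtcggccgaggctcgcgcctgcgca
Dhcr7: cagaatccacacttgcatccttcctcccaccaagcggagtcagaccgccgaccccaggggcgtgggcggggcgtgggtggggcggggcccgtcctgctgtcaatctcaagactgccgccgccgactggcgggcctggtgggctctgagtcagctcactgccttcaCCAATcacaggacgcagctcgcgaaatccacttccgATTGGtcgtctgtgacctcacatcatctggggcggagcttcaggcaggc
Sc5d: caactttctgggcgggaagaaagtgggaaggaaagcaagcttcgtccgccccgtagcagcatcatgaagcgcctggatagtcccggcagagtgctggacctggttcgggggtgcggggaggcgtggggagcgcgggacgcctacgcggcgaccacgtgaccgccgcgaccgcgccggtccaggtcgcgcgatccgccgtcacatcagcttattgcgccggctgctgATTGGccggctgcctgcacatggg
Ch25h: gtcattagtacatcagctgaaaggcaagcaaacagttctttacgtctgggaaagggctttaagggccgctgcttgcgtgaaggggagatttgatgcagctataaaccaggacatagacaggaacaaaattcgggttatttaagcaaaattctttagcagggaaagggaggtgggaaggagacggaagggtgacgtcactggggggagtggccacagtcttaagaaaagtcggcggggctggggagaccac
Of the 36 members, 28 matched an entry by symbol, with 37 promoters between them. Scd1, Scd2, Fads1, Sqle, Fdps, Fdft1, Abcg1 and Stard4 matched no entry and were not searched. An NF-Y box was present in 20 of those 37 promoters, against 33.8% of all 32851 mouse promoters of the same length. Among the cholesterol synthesis enzymes, 14 of 15 matched genes had an NF-Y box in at least 1 promoter. Among the matched members only Hmgcs1 held TCACNCCAC, which 1.05% of all promoters hold. The interferon-stimulated response element (GAAA, any 2 bases, GAAA) and the STAT site TTCNNNGAA were each found in Ebp alone among the matched members. Of all promoters, 2.98% and 7.02% held them. The LXR element (AGGTCA, any 4 bases, AGGTCA) was in no matched member, against 0.0152% of all promoters. None of the motifs searched, which included the E-box CACGTG and the Sp1 box GGGCGG, was in the Ch25h window. These matches describe the letters of the windows only. The NF-Y box was present in 7 of the 9 matched members that were lower in wild type after IFN-β, described next, and in 12 of the 17 matched members that were not called.

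Values are log2 processed signals from which the 75th percentile of the same array was subtracted, so 0 is the level of a bright probe on that array and 1 unit is a 2-fold difference. Levels of different genes come from different probes and are not compared. A gene with several probes is given by the probe of highest mean. Per array 59.4% to 71.6% of the 43379 spots lay well above background. The lowest shares, 59.4% to 62.5%, were on slide 3, which held Ifnar2-/- arrays only. All wild-type PBS arrays lay on slide 1 with 1 wild-type IFN-β array, so slide and group were partly mixed. The targeted gene did not settle the genotype labels: after PBS, Ifnar2 was lower in Ifnar2-/- by 1 probe (4.64 in wild type, 2.79 in Ifnar2-/-) and higher by the other (1.64 and 2.59), and a probe outside the deleted part checks nothing. Of 8 interferon-induced reference genes, 7 were lower in Ifnar2-/- than in wild type after PBS. All 8 rose in wild type after IFN-β, by log2 differences from 6.47 to 13.75. Summed over the markers found on the array, in multiples of the array's 75th percentile, macrophage markers (6 of 6 found, all well above background on every array) ranged over 304.1-443.6 on wild-type PBS arrays and 287-344.1 on wild-type IFN-β arrays. Markers of other cells moved with IFN-β in wild type: monocyte markers (4 of 5 found) went from 63.0-94.3 to 201-242.7, T and NK cell markers (6 of 6) from 5.52-5.94 to 2.44-3.07, adipocyte markers (6 of 6, of which 1 was well above background on every array) from 11.74-29.99 to 6-8.82, and mesothelial and stromal markers (6 of 6) from 1.16-1.46 to 0.81-0.94. In Ifnar2-/- the monocyte markers ranged over 53.8-72.1 with PBS and 53.4-67.6 with IFN-β, while the mesothelial and stromal markers went from 1.14-1.47 to 0.80-1.00, as low as in wild type. Single markers did not all follow the sums. In wild type, 3 of 4 tested monocyte markers were called higher and 0 lower, against 17.6% and 21.8% of all genes. Called lower were 3 of 6 T and NK cell, 2 of 3 adipocyte and 3 of 6 mesothelial and stromal markers. Each of the latter lists held 1 marker with a positive difference, not called, at 0.99, 0.77 and 0.60 in that order. Of 6 macrophage markers 1 was called higher and 1 lower. Called lower were also 2 of 6 B cell, 2 of 5 mast cell and 1 of 6 neutrophil markers, with 0 higher in these lists. The B cell sums overlapped between wild-type PBS (182.6-269.7) and IFN-β arrays (185.8-227.4), as did the mast cell sums (187.7-264.2 and 163.6-188.2). The part of these shifts in the results below was not tested.

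**Figure D1:**
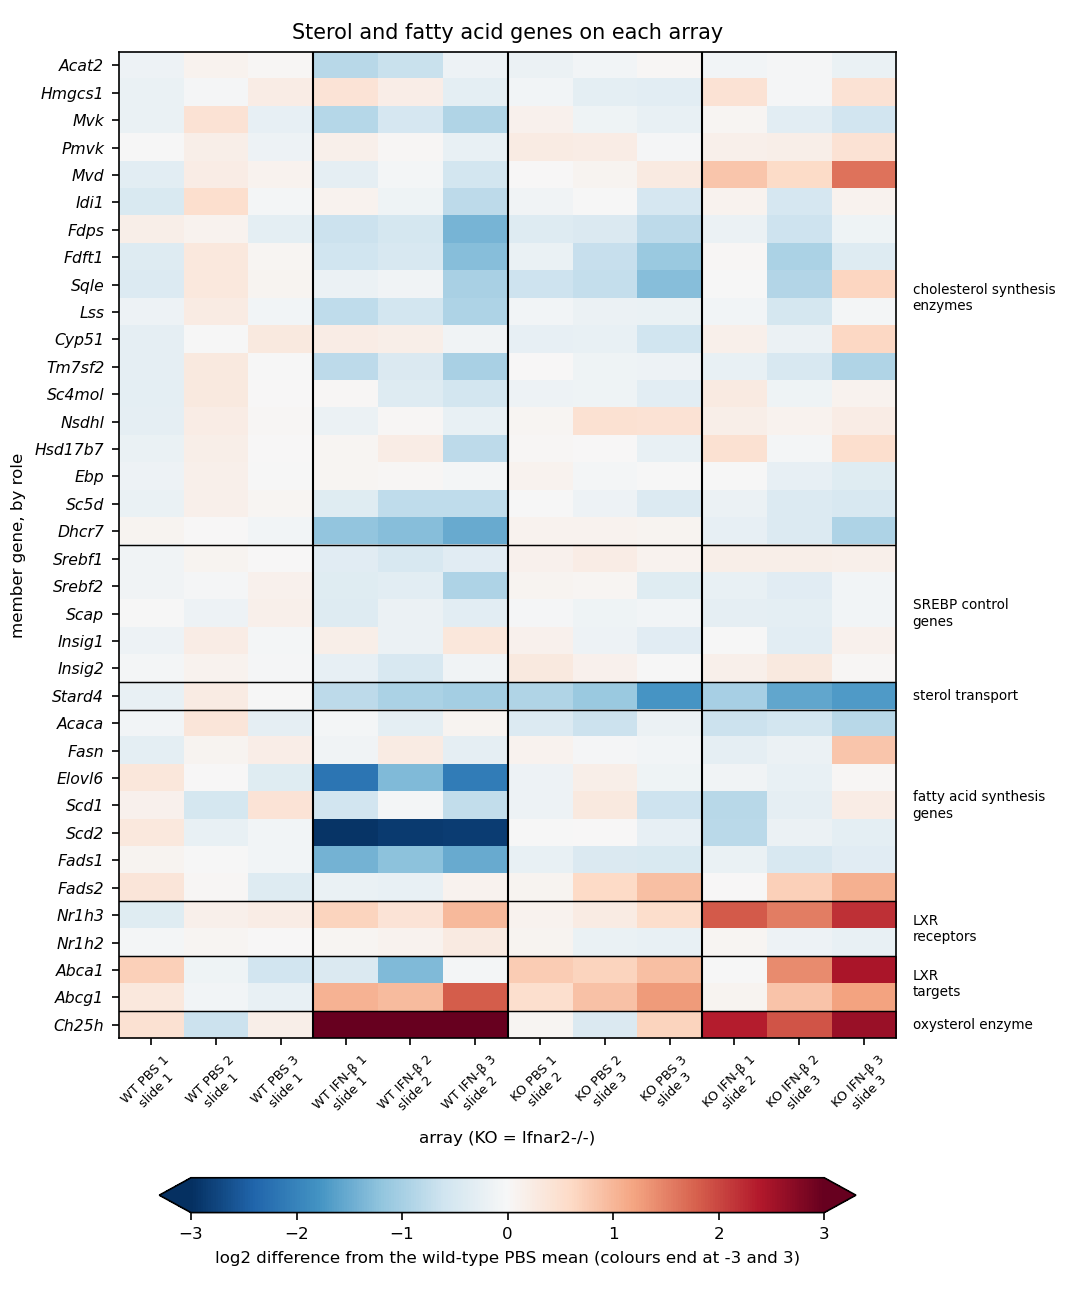
Every member (rows, by role) on each of the 12 arrays (columns), coloured by the log2 difference from that gene's wild-type PBS mean; colours end at -3 and 3, and each column names its slide. Scd2, Elovl6, Fads1 and Dhcr7 are blue on the 3 wild-type IFN-β arrays, and Ch25h is dark red there and paler on the 3 Ifnar2-/- IFN-β arrays.

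In wild-type cells IFN-β lowered part of the sterol and fatty acid programme and raised Ch25h. Of the 36 members, 13 were lower, 3 were higher and 20 were not called at an adjusted p under 0.05, against 39.4% of all genes called, 21.8% lower and 17.6% higher. The median member difference was -0.30, against -0.05 over all genes, and 28 of 36 differences were negative. The members that moved furthest down were Scd2, Elovl6, Fads1 and Dhcr7, and the members that rose were Ch25h, Abcg1 and Nr1h3. In whole exudate RNA, fewer cells of a type and less RNA per cell cannot be told apart.

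Of the 7 fatty acid synthesis and desaturation genes 3 fell, namely Scd2, Elovl6 and Fads1, and 4 did not pass the test. Scd2, a desaturase that puts the first double bond into saturated fatty acids, lay at 1.99, 1.45 and 1.60 on the wild-type PBS arrays and at -1.26, -1.20 and -1.16 on the wild-type IFN-β arrays. The groups lay far apart, and the difference of -2.89 (SE 0.19, adjusted p = 1.18e-06) was 7.41-fold lower. Elovl6, which lengthens palmitate, lay at -1.71, -2.04 and -2.41 after PBS and at -4.25, -3.37 and -4.15 after IFN-β, a difference of -1.87 (SE 0.24, adjusted p = 0.000163). Fads1, a desaturase in the making of polyunsaturated fatty acids, lay at -1.87, -1.96 and -2.03 and then at -3.37, -3.19 and -3.46, a difference of -1.39 (SE 0.12, adjusted p = 1.17e-05). For each of these genes all 3 IFN-β arrays lay below all 3 PBS arrays. On slide 1 alone, with 1 IFN-β array against 3 PBS arrays, the differences were -2.94 for Scd2, -2.19 for Elovl6 and -1.42 for Fads1. With normexp background correction, which here adds an offset to every signal, Elovl6 gave -0.88 (adjusted p = 0.000718), Fads1 -0.93 (3.29e-05) and both kept their calls.

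The other members of this group did not pass the test. Fasn, the fatty acid synthase, lay at 3.95 ± 0.25 (SD, n = 3) after PBS and 3.90 ± 0.26 after IFN-β, a difference of -0.05 with a 95% interval from -0.64 to 0.55. Acaca, which makes malonyl-CoA for Fasn, gave -0.09 (-0.51 to 0.33). Scd1, the desaturase of the same family as Scd2, lay at 2.74, 2.08 and 3.03 after PBS and at 2.03, 2.56 and 1.88 after IFN-β. The Scd1 groups overlapped, with a difference of -0.46 (-1.21 to 0.29). Fads2, the partner of Fads1 in polyunsaturated fatty acid synthesis, gave -0.10 (-0.76 to 0.56).

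**Figure D2:**
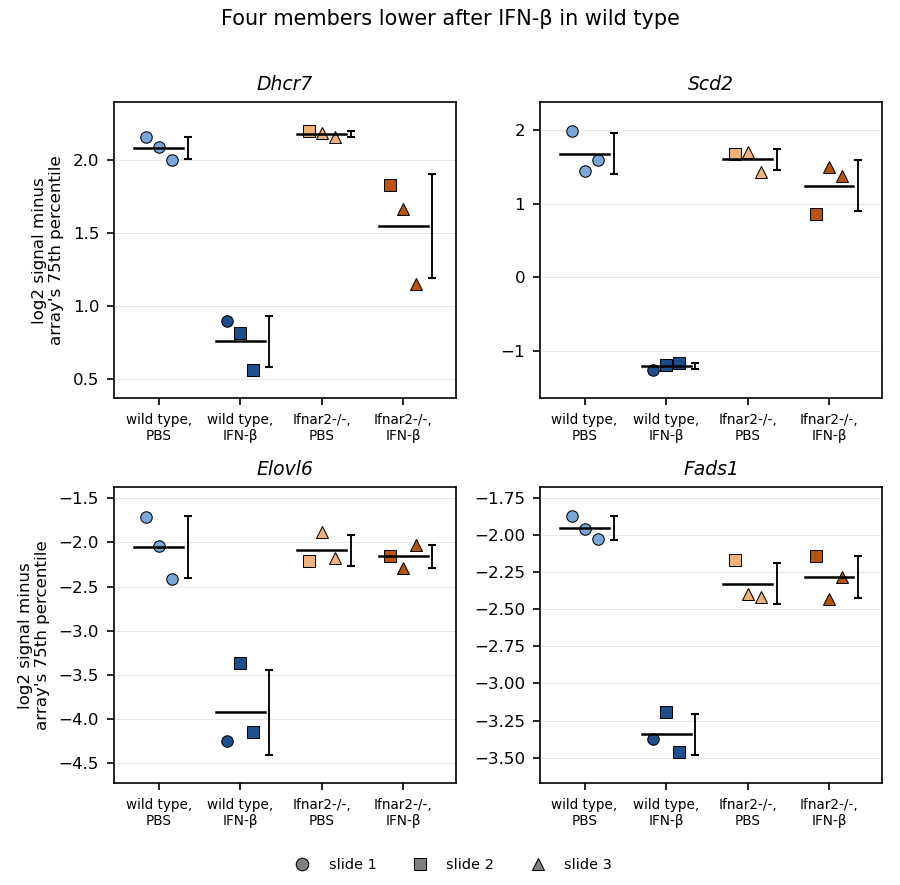
Values of Dhcr7, Scd2, Elovl6 and Fads1 on each array (y axis, log2 signal minus the array's 75th percentile) in the 4 groups; marker shape gives the slide, the line the group mean and the bar the SD over 3 arrays. In each panel the 3 wild-type IFN-β arrays lie below all 9 others, for Scd2 at -1.26 to -1.16.

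Among the 18 cholesterol synthesis enzymes 7 were lower and 0 higher by limma's test in wild type, against 21.8% and 17.6% of all genes, with a median difference of -0.36. At an unadjusted p under 0.05, 8 were lower and 0 higher, against 25.8% and 21.0% of all genes. The called members lay at the start, in the middle and at the end of the pathway. Dhcr7 lay at 2.16, 2.09 and 2.01 after PBS and at 0.90, 0.82 and 0.56 after IFN-β, a difference of -1.33 (SE 0.17, adjusted p = 0.000131) or 2.51-fold lower. Its second probe gave -1.50 and was also called. Lss lay at -1.46, -1.06 and -1.39 and then at -2.06, -1.86 and -2.24, a difference of -0.75 (SE 0.16, adjusted p = 0.00445). Its other probes gave -1.37 (called) and -0.43 (not called). Sc5d gave -0.64 (SE 0.16, adjusted p = 0.0105) on its brightest probe and fell from -0.65, -0.34 and -0.43 to -2.34, -2.55 and -2.37 on another, so that the mean of its probes gave -1.29.

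The other called cholesterol enzymes had smaller differences. Acat2, the thiolase that condenses acetyl-CoA, gave -0.56 (SE 0.17, adjusted p = 0.021), and Mvk gave -0.75 (SE 0.22, adjusted p = 0.0208). Tm7sf2, a sterol reductase after lanosterol, gave -0.73 (SE 0.21, adjusted p = 0.0167). Fdps, which makes farnesyl diphosphate, gave -0.85 (SE 0.24, adjusted p = 0.0175), but only -0.17 (adjusted p = 0.665) on its second probe, and the mean of both gave -0.51 and was not called (adjusted p = 0.122). For each of these 4 enzymes all 3 IFN-β values lay below all 3 PBS values, as they did for 16 of 36 members in all, against 29.1% of all genes; 3 members lay wholly above, against 24.6%.

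The remaining 11 enzymes were not called, among them the classic SREBP targets Hmgcs1, Idi1 and Sqle. Hmgcs1 was the only matched member with the SREBP site in its window. It lay at 1.32, 1.48 and 1.73 after PBS and at 1.91, 1.71 and 1.22 after IFN-β. The groups overlapped, with a difference of 0.11 (95% interval -0.34 to 0.55). Idi1, the isopentenyl diphosphate isomerase, gave -0.28 (-0.94 to 0.39) and Sqle, the squalene epoxidase, -0.42 (-1.27 to 0.44). Cyp51, the lanosterol demethylase, gave 0.10 (-0.38 to 0.57). Its other probes gave -0.52 (adjusted p = 0.0636, with no overlap) and 0.02, neither of them called. Fdft1, the squalene synthase, gave -0.79 with an interval from -1.51 to -0.07 and an adjusted p of 0.0779. Pmvk and Mvd of the mevalonate pathway, and Sc4mol, Nsdhl, Hsd17b7 and Ebp of the steps after lanosterol, gave differences from -0.29 to 0.02.

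Among the 5 genes of the sensing system, both SREBP genes were lower in wild type after IFN-β. Srebf1 lay at 3.22, 3.41 and 3.35 after PBS and at 2.98, 2.85 and 2.99 after IFN-β, a small difference of -0.39 (SE 0.10, adjusted p = 0.00897) with no overlap. Under quantile normalization it was -0.62. Srebf2 gave -0.53 (SE 0.18, adjusted p = 0.0391) on its brightest probe and -0.42, -0.36 and -0.18 on the others, none of which was called, and its mean over probes was -0.37 (adjusted p = 0.06). Scap gave -0.30 (adjusted p = 0.0664), Insig2 -0.28 (adjusted p = 0.13) and Insig1 0.12 (95% interval -0.30 to 0.52). Insig1 is itself a classic SREBP target and Srebf1 a classic LXR target. Stard4, a carrier of cholesterol between membranes and also an SREBP target, fell from 1.14, 1.60 and 1.33 to 0.57, 0.40 and 0.33 on its brightest probe (-0.92, SE 0.25, adjusted p = 0.0126). Its other probes gave -0.02 and 0.02, and the mean of its probes gave -0.31 (adjusted p = 0.313), so the Stard4 call rests on 1 probe.

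Ch25h rose far more than any other member. It lay at -6.75, -7.84 and -7.02 on the wild-type PBS arrays, not well above background on any of them, and at 2.68, 2.74 and 2.10 on the wild-type IFN-β arrays. Set against the lowest signal well above background on each PBS array, or the probe's own where higher, Ch25h was at least 531.3-fold higher (fitted log2 difference 9.71, SE 0.35, adjusted p = 2.09e-08). It passed the filter on dim probes only through this group. On slide 1 alone the difference was 9.88, and with normexp correction the fitted difference was 6.15 (adjusted p = 4.97e-11).

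The LXR genes did not move as a group. Abcg1, a sterol exporter, lay at 2.04, 1.66 and 1.51 after PBS and at 2.78, 2.69 and 3.55 after IFN-β, a difference of 1.27 (SE 0.33, adjusted p = 0.0104) with no overlap. Abca1, the exporter that loads cholesterol onto apolipoprotein A-I, lay at 1.87, 1.02 and 0.59 and then at 0.72, -0.16 and 1.11. Its groups overlapped, and its difference was -0.60 with a 95% interval from -1.85 to 0.65. The highest of these values was on wild-type PBS replicate 1, where neutrophil markers summed to 106, against 14.2 and 9.22 on the other PBS arrays, and their part was not tested. Nr1h3, which encodes LXRα, rose from -2.30, -1.76 and -1.71 to -1.25, -1.51 and -0.94 (0.69, SE 0.22, adjusted p = 0.0317). Nr1h2, which encodes LXRβ, gave 0.14 (-0.14 to 0.41).

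**Figure D3:**
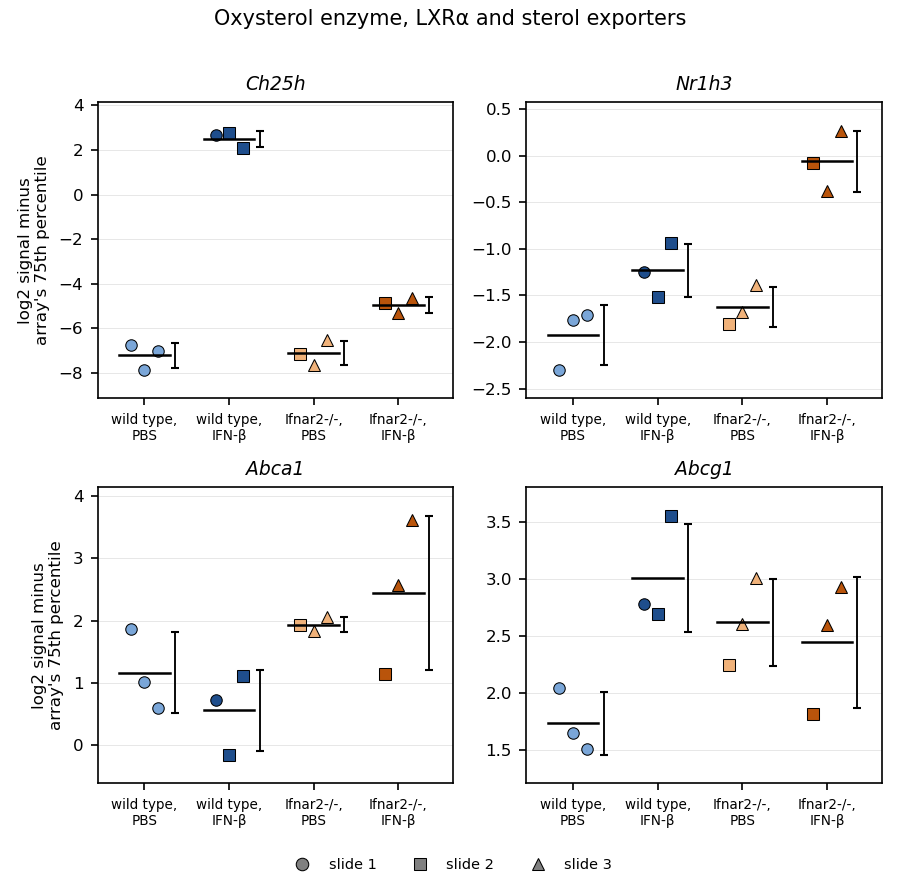
Values of Ch25h, Nr1h3, Abca1 and Abcg1 on each array (y axis, log2 signal minus the array's 75th percentile) in the 4 groups; marker shape gives the slide, the line the group mean and the bar the SD over 3 arrays. Ch25h stands at 2.10 to 2.74 on the wild-type IFN-β arrays and at -5.32 to -4.61 on the Ifnar2-/- IFN-β arrays, while Nr1h3 is highest in the latter group.

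Slide and single arrays bore on which of the smaller wild-type differences passed the test. All wild-type PBS arrays lay on slide 1, with 1 wild-type IFN-β array. With slide as a fixed block, the wild-type difference is therefore that of this IFN-β array against the 3 PBS arrays. It equals the difference on slide 1 alone and is no separate check. With slide as a fixed block, 5 members stayed lower and 1 higher, namely Acat2, Dhcr7, Elovl6, Scd2 and Fads1, and Ch25h. In that setting 13.3% of all genes were lower and 10.9% higher, so the members' share of lower calls was near that of all genes. The differences of Lss (-0.76, adjusted p = 0.0554), Mvk (-0.85, 0.0623), Tm7sf2 (-0.78, 0.0845), Srebf1 (-0.35, 0.127) and Nr1h3 (0.68, 0.194) stayed close to their size while the calls were lost. Those of Stard4 (-0.79, 0.0652), Abcg1 (1.04, 0.0668), Fdps (-0.64, 0.231), Srebf2 (-0.37, 0.369) and Sc5d (-0.37, 0.176) were smaller. Without wild-type PBS replicate 2, 8 of the 36 members were lower, against 18.3% of all genes. In that setting Acat2 (adjusted p = 0.0714), Mvk (0.0764), Tm7sf2 (0.0667), Fdps (0.0559), Srebf2 (0.0764) and Stard4 (0.0502) were not called. Without wild-type IFN-β replicate 3, Mvk (0.0679), Tm7sf2 (0.0634), Fdps (0.056), Srebf2 (0.137) and Nr1h3 (0.113) lost their calls, and without wild-type IFN-β replicate 1, Mvk (0.0693), Tm7sf2 (0.0527), Acat2 (0.0884) and Nr1h3 (0.0742) did. Acat2 was also lost without wild-type PBS replicate 3 (0.0584) or IFN-β replicate 2 (0.0686), and Nr1h3 without wild-type PBS replicate 1 (0.121). Fdps was also lost without wild-type PBS replicate 1 (0.0628), and Srebf2 without that array (0.061), wild-type PBS replicate 3 (0.119) or Ifnar2-/- IFN-β replicate 1 (0.05).

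Other genes of these pathways, from lists that overlap no member, also went both ways in wild type, where 21.8% of all genes were lower and 17.6% higher. Of 16 further SREBP targets 15 were tested, and 8 were lower and 3 higher, with a median of -0.57. The largest differences were -1.86 for Lpin1 (adjusted p = 2.26e-06), a phosphatidate phosphatase, and -1.60 for Elovl5 (adjusted p = 0.000346), an elongase of polyunsaturated fatty acids. The 3 higher were Acss2, which makes acetyl-CoA from acetate (0.94), Stard5 (0.78) and Ggps1 (0.50), the last pair named after their values were seen. Of 10 further LXR targets 9 were tested. The phagocytic receptor Mertk, also in the macrophage marker list, was higher (1.35), and Rxra (-0.77), the partner of LXR in DNA binding, Arl4c (-0.75) and Abca7 (-0.48) were lower. Of 11 genes of oxysterol and sterol ester metabolism 8 were tested. Soat2, which esterifies cholesterol, was higher (1.48), and Gpr183 (-0.88), the receptor for an oxysterol made downstream of Ch25h, and Hsd3b7 (-0.83), which breaks that oxysterol down, were lower.

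Without Ifnar2 few members were called after IFN-β. Of the 36, 2 were higher and 0 lower by limma's test, against 1.13% of all genes called, 0.922% higher and 0.212% lower; at an unadjusted p under 0.05, 5 were higher and 1 lower, against 8.87% and 9.42% of all genes. The median member difference was 0.02, against -0.05 over all genes. The called members were Nr1h3 and Ch25h, and no cholesterol or fatty acid synthesis gene was called in this comparison. Of the further SREBP, LXR and oxysterol genes only Fabp5 was called, named after its values were seen: it was at least 1.90-fold lower and was not well above background on any Ifnar2-/- IFN-β array. The interferon-induced reference genes had 2 of 8 higher, Oasl1 (1.79) and Cxcl10 (3.50).

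Nr1h3 lay at -1.81, -1.67 and -1.38 on the Ifnar2-/- PBS arrays and at -0.08, -0.38 and 0.27 on the Ifnar2-/- IFN-β arrays. The groups were apart by 1.56 (SE 0.22, adjusted p = 0.0135), or 2.95-fold, and the difference was 1.74 on slide 2 (1 array against 1) and 1.47 on slide 3 (2 against 2). Ch25h lay at -7.14, -7.63 and -6.53 after PBS, on no array well above background, and at -4.86, -5.32 and -4.61 after IFN-β, on 2 of 3 arrays well above background. It was at least 1.72-fold higher (fitted log2 difference 2.17, SE 0.35, adjusted p = 0.0195), with 2.28 on slide 2 and 2.12 on slide 3. The fitted and within-slide differences rest on PBS values not well above background. Ch25h passed the filter on dim probes only through the wild-type IFN-β group. Without that filter it was not called (adjusted p = 0.0529), nor with slide as a fixed block (0.0528). With normexp correction Ch25h gave 0.31 and was not called (adjusted p = 0.351). Same-numbered Ifnar2-/- arrays shared a slide. With the replicate number as a block on the Ifnar2-/- arrays alone, neither gene was called (adjusted p = 0.195 for Nr1h3 and 0.127 for Ch25h). That setting called 0 of all 18438 genes, so it cannot single out these genes. With the block on all 12 arrays both were called (0.00744 and 0.0239). Both lost their call without Ifnar2-/- PBS replicate 1 (0.0559 for Nr1h3 and 0.0721 for Ch25h) or Ifnar2-/- PBS replicate 2 (0.0693 and 0.0838), and Ch25h also without Ifnar2-/- IFN-β replicate 3 (0.0593). Without slide 3, which leaves 1 array in each Ifnar2-/- group, neither was called (0.436 and 0.516); the fit then takes the spread of these lone arrays from the wild-type groups, and the differences were 1.74 and 2.28. Neutrophil markers (6 of 7 found) summed to 19.2, 78.1 and 196.4 on these IFN-β arrays, against 10.2 to 15.4 after PBS, and their part was not tested.

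Among the members that missed the threshold in Ifnar2-/-, Dhcr7 had the lowest difference, from 2.20, 2.19 and 2.16 after PBS to 1.83, 1.67 and 1.15 after IFN-β (-0.63, SE 0.17, adjusted p = 0.1). Its groups did not overlap. Mvd, which makes isopentenyl diphosphate, lay at 0.16, 0.24 and 0.42 and then at 0.98, 0.73 and 1.77, also without overlap (0.89, SE 0.26, adjusted p = 0.121). In all, 5 members lay wholly above and 2 wholly below their PBS values, against 11.3% and 12.2% of all genes. Scd2 gave -0.36 (95% interval -0.77 to 0.06), Elovl6 -0.07 (-0.61 to 0.47) and Fads1 0.04 (-0.23 to 0.32).

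**Figure D4:**
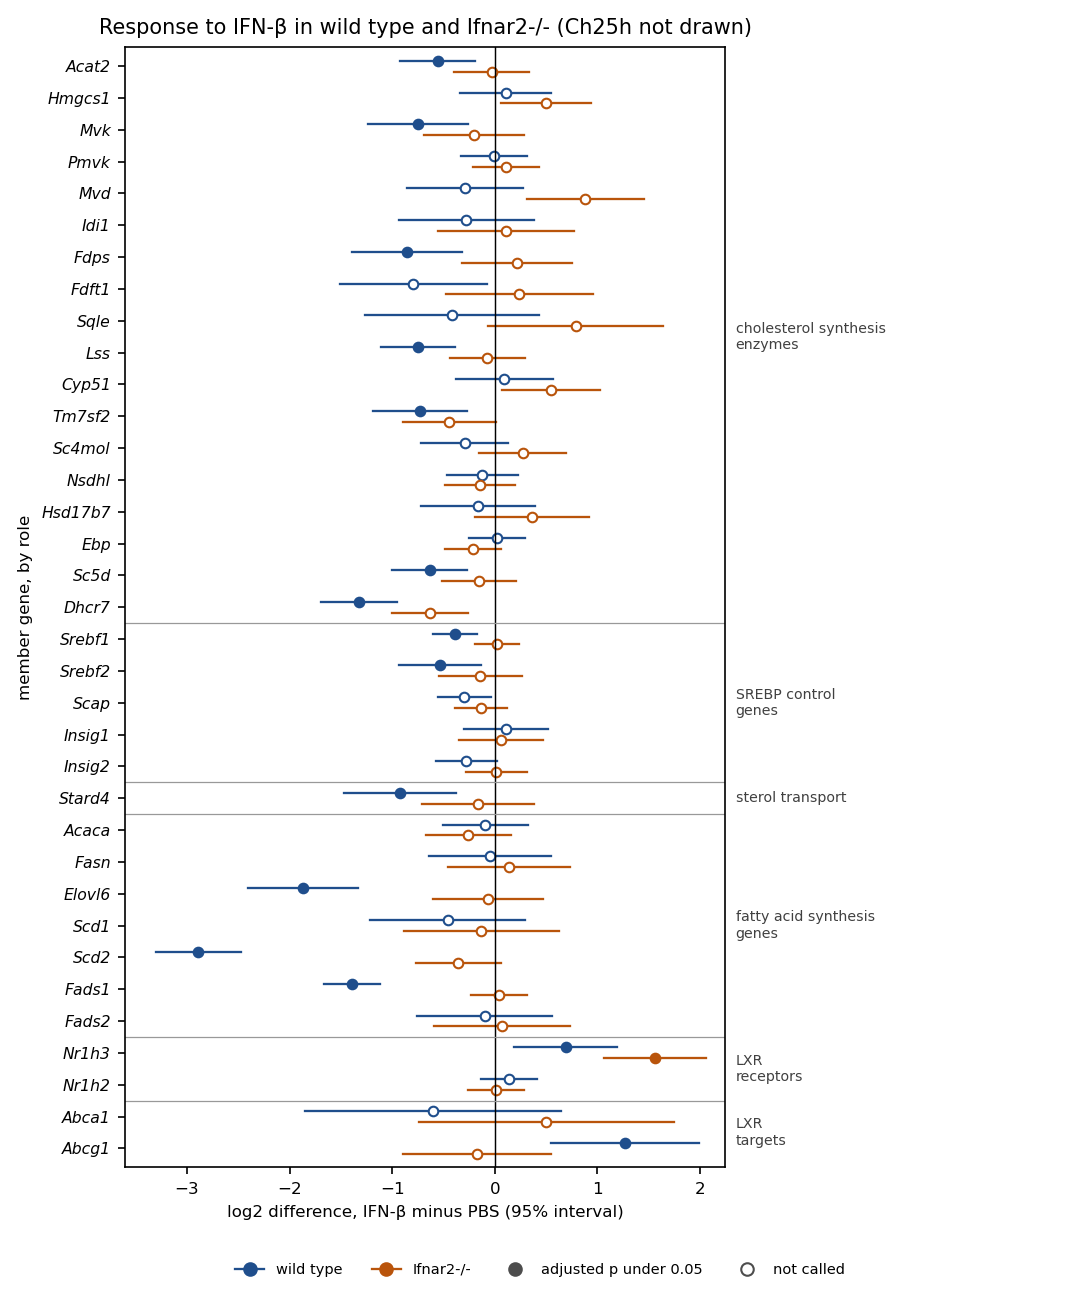
Log2 difference between IFN-β and PBS (x axis) for 35 members (y axis, by role) in wild type (blue) and Ifnar2-/- (orange), with 95% intervals from the fit; filled points have an adjusted p under 0.05, and Ch25h, at 9.71 and 2.17, is not drawn. Scd2, Elovl6, Fads1 and Dhcr7 stand furthest left in wild type, and only Nr1h3 is filled in Ifnar2-/-.

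The responses of the genotypes were then compared with each other, as Ifnar2-/- minus wild type, which tests whether they differ in size. This comparison does not test whether a response needs the receptor subunit. Of the 36 members 4 had a positive and 1 a negative difference that was called, against 8.68% and 9.1% of all genes (17.8% in all). For Scd2 the difference was 2.53 (SE 0.26, adjusted p = 0.000101), for Elovl6 1.80 (SE 0.34, adjusted p = 0.00463) and for Fads1 1.43 (SE 0.17, adjusted p = 0.000284). Each of these genes was called lower in wild type and was not called in Ifnar2-/-. Ch25h was also called (-7.54), but it was not well above background on any PBS array of either genotype, so the size of this difference rests on values below background. After IFN-β, when Ch25h was well above background on 3 of 3 wild-type and 2 of 3 Ifnar2-/- arrays, the difference was -7.44. Mvd differed by 1.17 (SE 0.36, adjusted p = 0.0477), with responses of -0.29 in wild type and 0.89 in Ifnar2-/-; this call was kept in 10 of 23 other settings. It was lost when any 1 array was left out (adjusted p from 0.0519 to 0.105), except wild-type PBS replicate 1 and Ifnar2-/- IFN-β replicates 2 and 3. With normexp correction Elovl6 differed by 0.82 (adjusted p = 0.0214) and Fads1 by 0.94 (adjusted p = 0.00115), and without slide 3 Elovl6 was not called (1.92, adjusted p = 0.101).

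The other members called in wild type did not pass the test of the difference. Dhcr7 differed by 0.69 (adjusted p = 0.0701), Lss by 0.68 (0.0718), Srebf1 by 0.41 (0.0658), Fdps by 1.07 (0.0566) and Abcg1 by -1.44 (0.0551). Nr1h3 differed by 0.87 (adjusted p = 0.0894), from rises of 0.69 in wild type and 1.56 in Ifnar2-/-. Second probes gave calls for Lss (1.05, adjusted p = 0.00531), Sc5d (1.45, adjusted p = 0.00137) and Cyp51 (1.11, adjusted p = 0.0213), where the brightest probe did not. The cholesterol synthesis enzymes had a median difference of 0.53, against 0.03 over all genes, and 16 of 18 were positive. Of these 18 only Mvd was called, against 8.68% of all genes called positive and 9.1% negative.

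After PBS, with no interferon given, 1 member was lower in Ifnar2-/- and 0 were higher by limma's test, against 4.86% of all genes called (2.04% lower and 2.82% higher); the one member was Stard4. It lay at 1.14, 1.60 and 1.33 in wild type and at 0.46, 0.25 and -0.42 in Ifnar2-/-. The groups did not overlap and differed by -1.26 (SE 0.25, adjusted p = 0.0165), and its other probes gave -1.38 and -1.14, both called. All wild-type PBS arrays lay on slide 1 and no Ifnar2-/- array did. With slide as a fixed block the difference was -0.67 and not called (adjusted p = 1), without slide 3 it was -0.90 (adjusted p = 0.155), and without wild-type PBS replicate 2 it was -1.14 (adjusted p = 0.0618). Scd2 (-0.08), Elovl6 (-0.03), Dhcr7 (0.10) and Ch25h, at background in both genotypes, were not called. Values did not overlap for 3 members above and 4 below, against 15.3% and 13.8% of all genes.

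After IFN-β 10 members were higher in Ifnar2-/- than in wild type and 2 lower, against 38.5% of all genes called (21.3% higher and 17.2% lower). Values did not overlap for 12 members above and 3 below, against 25.6% and 21.3% of all genes. This comparison shares its arrays with the ones above. Mast cell markers (5 of 6 found) summed to 264.8-301.6 in Ifnar2-/- and 163.6-188.2 in wild type after IFN-β, and to 278.9-334.7 and 187.7-264.2 after PBS. Eosinophil markers (4 of 4 found, 1 not well above background on any array) were lower in Ifnar2-/-, at 0.95-1.48 against 2.41-6.56 after IFN-β and 0.50-1.81 against 2.07-3.64 after PBS. The part of these markers was not tested. The higher members were Scd2 (2.46), Elovl6 (1.77), Fads1 (1.06), Abca1 (1.88), Mvd (1.30), Nr1h3 (1.17), Dhcr7 (0.79), Srebf1 (0.56), Lss (0.53) and Insig2 (0.43). Ch25h (-7.44) and Acaca (-0.58) were lower. With the mean of a gene's probes, Insig2 (0.29, adjusted p = 0.0667) and Acaca (-0.45, 0.145) were not called. In that setting Sc5d (0.71, 0.00449) was called higher and Stard4 (-0.65, 0.0419) lower. On slide 2, with 1 Ifnar2-/- array against 2 wild-type arrays, the differences were 2.04 for Scd2, 1.61 for Elovl6, 1.19 for Fads1, 1.14 for Dhcr7, 1.13 for Mvd, 1.15 for Nr1h3 and -7.28 for Ch25h. With slide as a fixed block Abca1 (1.31, adjusted p = 0.219), Lss (adjusted p = 0.0839), Insig2 (0.076) and Acaca (0.186) were not called. Abca1 lay at 1.14, 2.57 and 3.61 on the Ifnar2-/- IFN-β arrays, the widest spread of any member in a group. Without the highest of these arrays, replicate 3, its difference was 1.30 (adjusted p = 0.069), and neutrophil markers were highest on the same array; their part was not tested. Without slide 3 it was 0.58 (adjusted p = 0.532).

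Single arrays also decided whether 4 members passed the test after IFN-β. With 1 array left out where the call was lost, the differences were 1.30 to 1.97 for Abca1, 0.44 to 0.52 for Lss, 0.33 to 0.45 for Insig2 and -0.60 to -0.50 for Acaca. Abca1 was not called without wild-type IFN-β replicate 1 (adjusted p = 0.05) or 2 (0.0827) or Ifnar2-/- IFN-β replicate 2 (0.0629). Lss was not called without wild-type IFN-β replicate 1 (0.0727) or 3 (0.0938) or Ifnar2-/- IFN-β replicate 1 (0.0783) or 3 (0.0764). Acaca was not called without those same arrays (0.0847, 0.0998, 0.0566 and 0.084 in that order). Insig2 was not called without wild-type IFN-β replicate 1 (0.0575) or 2 (0.09) or Ifnar2-/- IFN-β replicate 1 (0.0522) or 2 (0.0893). Scd2, Elovl6, Fads1, Dhcr7, Mvd, Srebf1 and Nr1h3 kept their calls in each of the 23 other settings of this comparison.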

How the data were processed

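Total RNA of peritoneal exudate cells was labelled with Cy3 and hybridised to 12 one-colour Agilent mouse arrays, 1 sample each. The deposited values were spot intensities from Agilent Feature Extraction 9.5.3.1, per the file headers and the submitters' processing notes, and the deposited value table equalled the processed signal (0 of 45018 values differing). Here log2 of the authors' deposited processed signal minus each array's 75th percentile was used. Spots called outliers were removed and spots of a probe averaged. A probe was kept if every array of some group had it well above background and 6 or more arrays measured it (27718 probes). A gene was represented by its kept probe of highest mean. limma 3.58.1 in R 4.3.3 was fitted to all 12 arrays with 4 group means, and p-values were Benjamini-Hochberg adjusted over 18438 genes, with a threshold of 0.05. For single values, an exact permutation test of 3 against 3 cannot go below 0.1. The script was tested on simulated data.

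Members and lists were chosen with earlier results of these data known. All 36 members are named. By rule at most 4 genes of each further list were named, those called in wild type with the largest difference. Genes named outside that rule, after their values were seen, are marked as such in the text. Alternatives changed the scaling, background correction, dim-probe filter, probe choice, slide and replicate terms, and the arrays included. Replicate numbers were checked as pairs, by the correlation of the arrays' deviations from their group means. Same-numbered Ifnar2-/- arrays gave r = 0.51, 0.188 and 0.104, and wild-type ones 0.033, -0.121 and -0.118. Differently numbered arrays of different groups reached 0.239, with 7 of 36 pairs over 0.1. Each same-numbered Ifnar2-/- pair shared a slide, so replicate number and slide cannot be told apart there. Of the wild-type pairs only replicate 1 shared a slide. The number of arrays limits the precision, and limma's p-values weigh a difference against the spread between these arrays. Promoters came from RefSeq (GRCm38.p6), matched by symbol.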

Additional observations from a re-analysis of the deposited data

Results flagged for a closer look

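The responses to IFN-β differed between the genotypes for 5 of the 36 members, against 17.8% of all genes. The test was that of the difference itself (Ifnar2-/- minus wild type, log2). The difference was 2.532 for Scd2, 1.8 for Elovl6 and 1.433 for Fads1, genes of fatty acid desaturation and elongation that were lower in wild type after IFN-β. For Ch25h it was -7.544, a size that rests on PBS values not well above background in either genotype. For Mvd, the mevalonate pathway decarboxylase, it was 1.174, a call kept in 10 of 23 other settings.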

How the results depend on the processing

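Each comparison was repeated in up to 24 other settings. Of the resulting member values, 717 kept a call, 109 lost and 61 gained one, and the rest were called neither as analysed nor in the setting; of the last, 177 changed sign, among them Idi1, Sc4mol and Hsd17b7 in wild type with slide as a fixed block. A single value changed sign with a call: Ebp in wild type, 0.02 as analysed, was -0.33 (adjusted p = 0.0365) under quantile normalization. The cause was not tested. In wild type, 13 lower and 3 higher became 5 and 1 with slide as a fixed block (13.3% of all genes lower and 10.9% higher). Leaving out 1 array gave 8 lower (without wild-type PBS replicate 2, 18.3% of all genes) to 14 lower (without Ifnar2-/- IFN-β replicate 3, 24.1% of all genes). In Ifnar2-/-, 2 higher became 1 with normexp, with no filter on dim probes, with probes well above background on all arrays or with slide as a fixed block. They became 0 with only the groups compared, where 0.0705% of all genes were higher and 0% lower. With the replicate block on the Ifnar2-/- arrays they also became 0, as did the calls over all genes. They were 0 to 2 with 1 array left out. In the difference between responses, 4 higher became 12 with no scaling (15.4% of all genes higher, 8.68% as analysed), 7 with normexp and 2 without slide 3, and 3 to 7 with 1 array left out (7 without Ifnar2-/- IFN-β replicate 2). The 1 lower became 2 with normexp, with the replicate block and without Ifnar2-/- PBS replicate 1 or IFN-β replicate 3. After PBS the 1 lower became 0 with slide as a fixed block, without slide 3 or without wild-type PBS replicate 2. After IFN-β, 10 higher and 2 lower became 22 and 1 with no scaling (41.8% of all genes higher and 9.94% lower, 21.3% and 17.2% as analysed), and the 2 lower became 1 with no filter, with probes well above background on all arrays, with the replicate block, without slide 3 and at the lowest with 1 array left out. With no scaling the median of all genes after IFN-β was 0.46 (0.08 as analysed), in the difference 0.31 (0.03) and in wild type -0.21 (-0.05). The replicate block on all arrays ended the calls of Srebf2 in wild type (adjusted p = 0.0547), Mvd in the difference (0.0622) and Acaca after IFN-β (0.0543), and gave calls in the difference to Fdps (0.0454), Dhcr7 (0.0431), Nr1h3 (0.0379) and Abcg1 (0.0452). With slide as a fixed block, the wild-type differences came from the 1 IFN-β array on slide 1 against the PBS arrays. The settings without slide 3 and with the block on the Ifnar2-/- arrays alone were chosen after seeing the data. Ch25h was near or below background in 3 of the 4 groups, which limits its smaller differences.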
